A study of Mus musculus with 6 samples.

Results

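The 7 genes described here, which encode transcription factors of naive T cells, were followed by ribosome profiling: Tcf7, Lef1, Foxo1, Foxp1, Satb1, Bach2 and Klf3. They were picked by their Ensembl gene IDs, given with their symbols in the rule that defines the set, and all 7 were found among the 22322 genes of the deposited table. Ribosome profiling sequences the short pieces of mRNA that ribosomes cover, so a count in the coding sequence (CDS) stands for a ribosome reading that gene. The 3 resting and the 3 activated libraries came from CD4+ T cells, helper lymphocytes isolated by negative selection out of the spleen and lymph nodes of C57BL/6J female mice aged 6 weeks. Activated cells had been stimulated with beads that carry antibodies against CD3 and CD28, for a time not given in the sources used here, and resting cells had not. Both groups are labelled untreated at 0 h, that is, without the inhibitors of transcription and translation that the protocols describe. The replicates are numbered 2, 3 and 4 in each group, and values per library are given in that order throughout. Nothing says whether each is a separate animal or culture, so p-values measure only the spread between these libraries, which may be technical. The labels name CD4+ T cells and give no sort for naive cells.

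T cells that have not met antigen are held in a resting state by a set of DNA-binding proteins. Tcf7 (its protein is called TCF-1) and Lef1 are closely related HMG-box factors of the Wnt pathway that build T cell identity in the thymus and are kept in naive and memory cells. Foxo1 and Foxp1 are forkhead factors: Foxo1 drives the homing and survival receptors of naive cells and is inactivated by kinase signalling from the antigen receptor, and Foxp1 holds naive cells in quiescence. Klf3 is a repressor of the Krüppel-like family, Bach2 a leucine-zipper repressor that restrains effector differentiation, and Satb1 a chromatin organiser important for T cell development.

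Per the submitters' processing notes the reads were placed on genome build mm10. In RefSeq for the same assembly (GRCm38.p6), Tcf7 lies at chr11:52246527-52283383, Lef1 at chr3:131110297-131224357, Foxo1 at chr3:52268337-52350109, Foxp1 at chr6:98925342-99522746, Satb1 at chr17:51736187-51833290, Bach2 at chr4:32238413-32586109 and Klf3 at chr5:64803521-64832901. Tcf7, Foxp1 and Satb1 are on the minus strand and the others on the plus strand. RefSeq lists no other gene that overlaps the span of Lef1, Foxo1 or Satb1. It lists 1 that overlaps Tcf7 (Skp1, at the 3′ end of Tcf7), 1 for Bach2, 2 for Klf3 and 5 for Foxp1. The strand setting of the counting is not given, so records of such neighbours cannot be told apart from those of the member with certainty.

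The 250 bases upstream of the outermost RefSeq start are shown for 3 genes that moved differently in these libraries: Lef1, which fell most of them, Foxo1, which fell less, and Satb1, which rose. Capitals mark the GC box GGGCGG or its reverse CCGCCC, a sequence that Sp and Krüppel-like factors bind.
Lef1 (chr3:131110047-131110296, plus strand): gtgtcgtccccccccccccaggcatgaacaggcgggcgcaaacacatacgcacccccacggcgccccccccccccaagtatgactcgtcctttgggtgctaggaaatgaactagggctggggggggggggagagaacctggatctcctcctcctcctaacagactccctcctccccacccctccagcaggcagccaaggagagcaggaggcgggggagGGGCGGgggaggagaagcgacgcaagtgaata
Foxo1 (chr3:52268087-52268336, plus strand): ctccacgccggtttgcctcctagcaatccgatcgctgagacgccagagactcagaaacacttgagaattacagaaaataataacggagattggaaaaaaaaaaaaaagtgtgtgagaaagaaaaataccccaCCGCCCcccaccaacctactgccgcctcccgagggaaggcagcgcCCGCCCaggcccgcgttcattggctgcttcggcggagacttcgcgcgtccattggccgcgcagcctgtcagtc
Satb1 (chr17:51833291-51833540, minus strand): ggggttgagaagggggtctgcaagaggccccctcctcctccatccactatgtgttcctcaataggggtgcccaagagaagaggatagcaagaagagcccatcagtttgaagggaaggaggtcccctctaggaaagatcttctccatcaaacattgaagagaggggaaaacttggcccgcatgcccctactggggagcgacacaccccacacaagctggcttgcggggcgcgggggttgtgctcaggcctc
The Lef1 window held 1 GC box, the Foxo1 window 2 and the Satb1 window 0. The window of Klf3, not shown because it lies inside the neighbouring gene Gm38457, held 6, in 78.4% G and C (the median over all windows was 52.4%). Of the 32851 windows of this length in the RefSeq promoter table, 32.7% held at least 1 GC box. A downstream alternative start of Satb1 had 3. All windows of Tcf7, Foxp1 and Bach2 are at starts downstream of the outermost one, and some windows of Lef1 and of Satb1 overlap each other. None of the 17 windows of the 7 genes held the forkhead motif TGTTTAC (reverse GTAAACA), the BACH and AP-1 motif TGAGTCA (reverse TGACTCA) or the TCF/LEF motif CTTTGAT (reverse ATCAAAG), which 3.17%, 4.46% and 3.21% of all windows held. The other TCF/LEF form, CTTTGAA (reverse TTCAAAG), was in 1 window, at an internal start of Foxp1, against 4.46% of all windows. The CACCC box CCACACCC (reverse GGGTGTGG) was in 1 window, at a start of Tcf7, against 3.20%. These matches describe letters only; both strands were searched, no overlap with another motif was removed, and binding was not measured.

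Coding footprints fell on 5 of the 7 genes and rose on 1 when resting and activated cells were compared. Klf3, Tcf7 and Lef1 fell by 3.55-fold to 4.48-fold, Foxp1 and Foxo1 fell by less than 2-fold, Satb1 rose by 1.32-fold, and Bach2 did not pass the test. In bulk libraries fewer cells of a kind and fewer footprints per cell cannot be told apart, and footprints alone do not separate the amount of mRNA from the number of ribosomes on each. Together the 7 genes held 0.793 ± 0.079% of all raw CDS counts in resting and 0.345 ± 0.025% in activated libraries (SD, n = 3). Shares of raw counts carry no scaling between libraries, unlike the fold changes above. Unscaled, the typical gene tested fell too (median -0.38 in log2, against -0.04 once scaled). The drop in share is therefore larger than scaled values would give. Tcf7, Lef1 and Klf3 alone went from 0.499 ± 0.060% to 0.105 ± 0.021% of raw counts. They were picked as the 3 members that fell most in these libraries, so this drop follows from the choice. Over the whole table edgeR's quasi-likelihood test, with Benjamini-Hochberg adjustment at 0.05, called 3097 of 6775 genes (45.7%), 1464 lower (21.6%) and 1633 higher (24.1%), and lower by at least 2-fold 734 (10.8%). Of the 7 genes, 5 were lower and 1 higher, and 3 were lower by at least 2-fold. The libraries of both groups did not overlap for 6 of the 7 genes, 5 below and 1 above, and for 54.8% of all genes tested, 26.7% below and 28.1% above. The median log2 change was -0.80 over the 7 genes and -0.04 over all genes tested. All 7 passed the filter on low counts.

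**Figure D1:**
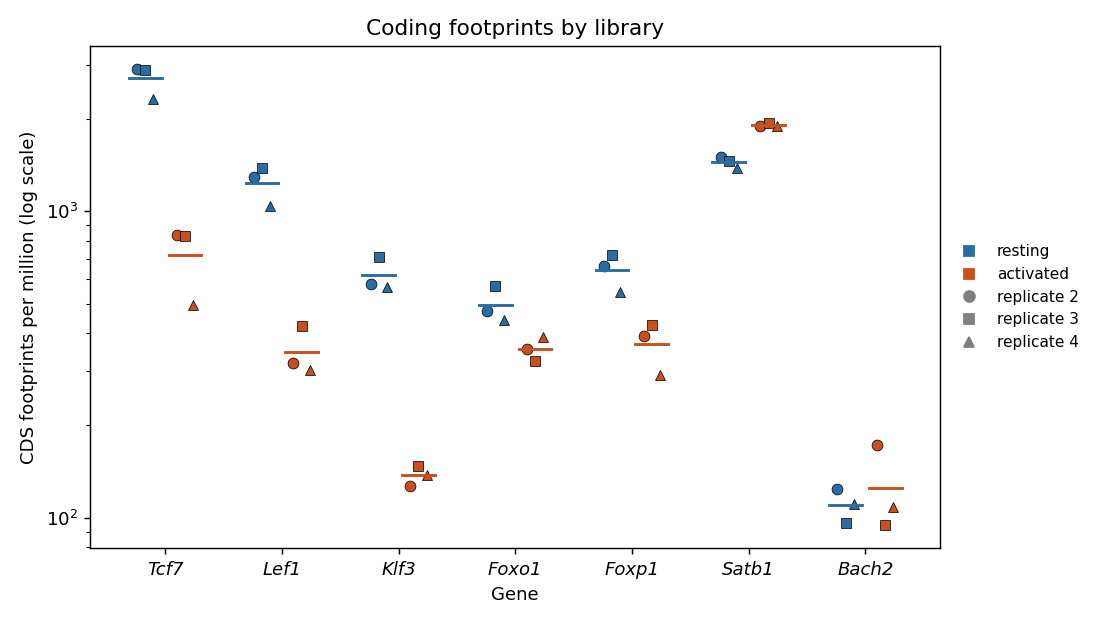
CPM (footprints per 1000000) in the CDS of the 7 genes in each library, on a log axis; colours mark resting and activated cells, symbols the replicate number, and bars the mean of 3 libraries. Activated libraries lie below all resting libraries for Tcf7, Lef1, Klf3, Foxo1 and Foxp1, above them for Satb1, and overlap them for Bach2; heights of different genes are not comparable, since they are not divided by coding length.

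In the HMG-box pair, Tcf7 (ENSMUSG00000000782.14) had 2921, 2894 and 2335 CPM (CDS footprints per 1000000) in the resting libraries, against 836, 830 and 496 in the activated ones. Library sizes for these values were scaled by the trimmed mean of M-values (TMM). Every activated library was below every resting library, with replicate 4 the lowest in each group. The log2 change was -1.92 (SE 0.19, edgeR adjusted p = 7.45e-07), a 3.78-fold fall that left 0.915% of the genes tested with a lower change. The counts behind it were 1389, 1784 and 1519 in resting and 368, 660 and 466 in activated libraries.

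Lef1 (ENSMUSG00000027985.13), the partner of Tcf7 in the same family, had 1293, 1387 and 1039 CPM in the CDS in the resting libraries. In the activated libraries it had 320, 421 and 303. The groups were far apart, and in both groups replicate 3 was highest and replicate 4 lowest. The log2 change was -1.83 (SE 0.17, edgeR adjusted p = 3.28e-07), a 3.55-fold fall. The ratio of Tcf7 to Lef1 CDS counts was 2.26, 2.09 and 2.25 at rest against 2.61, 1.97 and 1.64 after activation. The groups overlap and the activated ratios are the more spread, with a log2 change of -0.11 and an SD of 0.34 among activated libraries. These libraries do not settle whether the proportion of Tcf7 to Lef1 changed (exact two-sided permutation p = 0.7, 0.7 after adjustment over 21 pairs). With 3 libraries a group this permutation test cannot give a p under 0.1.

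Klf3 (ENSMUSG00000029178.13) had the largest fall of the set. Its CDS levels in CPM were 578, 710 and 567 in the resting libraries, against 127, 147 and 137 in the activated ones. The activated libraries lay close together, against a resting mean of 619 ± 79.7 (SD, n = 3). The log2 change was -2.16 (SE 0.16, edgeR adjusted p = 2.93e-08), a 4.48-fold fall, and 18 of the 6775 genes tested had a lower change. Relative to Lef1 its log2 change was lower by 0.33, but the library ratios of the groups overlapped (exact two-sided permutation p = 0.2, adjusted 0.247).

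Of the forkhead genes, Foxp1 changed more than Foxo1 by its fitted value, but the library ratios of the pair overlapped between the groups. Foxp1 (ENSMUSG00000030067.16) had 662, 719 and 547 CPM in the CDS in the resting libraries, against 393, 425 and 292 in the activated ones. All activated libraries were lower, and the log2 change was -0.80 (SE 0.17, edgeR adjusted p = 0.00107), a 1.74-fold fall. Foxo1 (ENSMUSG00000044167.6) had 471, 569 and 443 at rest against 354, 324 and 390 after activation. The groups came close, the highest activated library lying just below the lowest resting one. The log2 change of Foxo1 was -0.47 (SE 0.15, edgeR adjusted p = 0.0183), a 1.39-fold fall; without resting replicate 3 it was -0.35 (edgeR adjusted p = 0.132) and without activated replicate 3 -0.38 (edgeR adjusted p = 0.0994). The log2 ratio of Foxo1 to Foxp1 changed by 0.34, with overlapping groups (exact two-sided permutation p = 0.3, adjusted 0.35). That test cannot give a p under 0.1 with 3 libraries a group, so it could not have reached 0.05.

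Satb1 (ENSMUSG00000023927.14) was the one member that rose. It had 1506, 1458 and 1383 CPM in the CDS in the resting libraries, against 1895, 1943 and 1895 in the activated ones. The activated libraries were tightly grouped and all above the resting ones. The log2 change was 0.40 (SE 0.14, edgeR adjusted p = 0.0242), a 1.32-fold rise that holds relative to the TMM scaling. With upper quartile factors it was 0.26 (edgeR adjusted p = 0.130), with library totals alone 0.06 (edgeR adjusted p = 0.723) and in exon counts 0.32 (edgeR adjusted p = 0.0688). It also missed the threshold without resting replicate 3 (0.41, edgeR adjusted p = 0.0659) or resting replicate 4 (0.36, edgeR adjusted p = 0.0927).

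Bach2 (ENSMUSG00000040270.15) had the lowest coding counts of the set. Its CDS levels in CPM were 124, 95.7 and 111 in the resting libraries, against 173, 94.3 and 109 in the activated ones. Activated replicate 2 was the highest of all and of the other activated libraries 1 lay within and 1 just below the resting range. The log2 change was 0.15 (95% interval -0.32 to 0.62, edgeR adjusted p = 0.612). The fitted falls of Klf3, Tcf7, Lef1, Foxp1 and Foxo1 lay outside this interval, which is not a test of difference. The 95% interval of Foxo1, -0.79 to -0.15, overlapped it. The counts of Bach2 were 59, 59 and 72 in resting and 76, 75 and 102 in activated libraries. Its log2 change was -0.08 once activated replicate 2 was left out (edgeR adjusted p = 0.741).

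A ratio between genes of the same library does not depend on how libraries are scaled to each other. The split within the set was therefore also read from ratios, which use the same counts as the fitted changes. The Satb1 to Klf3 ratio of CDS counts was 2.60, 2.05 and 2.44 at rest against 14.9, 13.2 and 13.8 after activation. Each activated library was at least 5 times as high as each resting library, and the ratio rose 5.93-fold. The Tcf7 to Satb1 ratio was 1.94, 1.98 and 1.69 at rest against 0.441, 0.427 and 0.262 after activation, a 5.09-fold change. Satb1 had the highest fitted change of the set and Klf3 and Tcf7 the lowest, so the size of both ratio changes follows from that choice. Of the 21 pairs, 16 had groups that did not overlap, as had 55.2% of all pairs of genes tested with counts in each library. Each of the 16 came with an exact two-sided permutation p of 0.1 (0.131 after adjustment over 21 pairs), the smallest that 3 libraries against 3 can give, so no pair could reach 0.05. The 5 pairs that overlapped were Tcf7 with Lef1, Tcf7 with Klf3, Lef1 with Klf3, Foxo1 with Foxp1 and Satb1 with Bach2, with exact two-sided permutation p-values of 0.2 to 0.7. The Tcf7 to Klf3 ratio was 5.05, 4.07 and 4.12 at rest against 6.57, 5.64 and 3.61 after activation, and the Satb1 to Bach2 ratio 12.1, 15.2 and 12.5 against 10.97, 20.6 and 17.5. These ratios show unequal change, not that a gene kept its level.

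**Figure D2:**
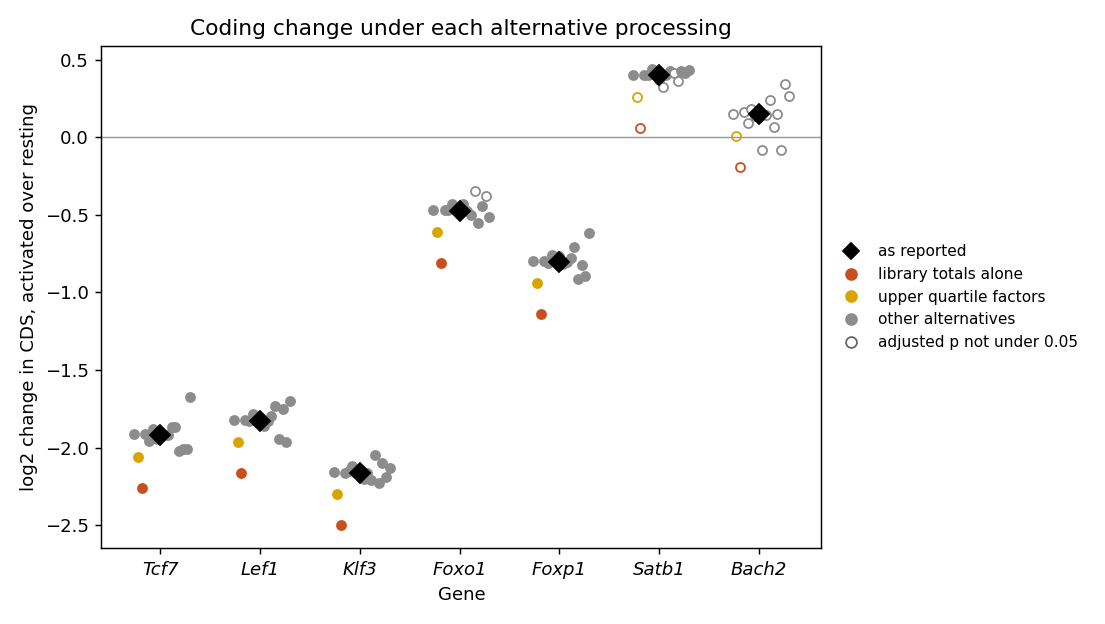
Log2 change of CDS counts, activated over resting, for each gene as reported and under 16 alternatives of scaling, test, filter, counting column and left-out library; open symbols have an adjusted p not under 0.05. Tcf7, Lef1, Klf3 and Foxp1 stay below 0 and past the threshold in each; Satb1 reaches 0.06 and Bach2 -0.19 with library totals alone.

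Scaling moved all genes alike. The median log2 change of all genes tested was -0.04 with TMM, -0.18 with upper quartile factors and -0.38 with library totals alone. Relative to that median the change of Satb1 was 0.44 under each of these scalings and that of Foxo1 -0.43 to -0.44. The change of Foxp1 was -0.76 to -0.77 and that of Bach2 0.18 to 0.19. The order within the set did not depend on the scaling, which follows from this common shift and is no separate support. Absolute levels are not fixed by these counts.

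The 5′ untranslated region (5′ UTR, the leader ahead of the start codon) also carries footprints in all 7 genes. Bach2 had about as many leader as coding counts, with 98.3, 180 and 111 leader counts per 100 CDS counts in the resting libraries, against 82.9, 105 and 97.1 in the activated ones. Klf3 had 38.1 ± 7.98 in resting and 41.2 ± 15.4 in activated libraries (SD, n = 3), Foxo1 29.7 ± 11.1 and 38.6 ± 13.3, and Lef1 26.8 ± 2.49 and 26.3 ± 5.08. Tcf7 had 4.87 ± 1.21 and 6.60 ± 3.23, Foxp1 1.37 ± 0.53 and 1.66 ± 0.17, and Satb1 0.816 ± 0.279 and 0.458 ± 0.101. These ratios can depend on the lengths of leader and coding sequence, among other things. The tables used here do not give lengths, so the ratios are compared within a gene only.

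Leader counts fell where coding counts fell most. Of 2200 genes tested on 5′ UTR counts, 924 were called (42%), 436 of them lower (19.8%). Of the 7 genes, 5 passed the filter, and 3 of these fell. Klf3 leader counts were 113, 193 and 107 at rest against 32, 47 and 34 after activation, a log2 shift of -2.40 (SE 0.27, edgeR adjusted p = 1.08e-05). Lef1 leader counts were 165, 250 and 164 in resting and 44, 89 and 60 in activated libraries (log2 change -2.15, SE 0.25, edgeR adjusted p = 1.58e-05). Tcf7 leader counts were 53, 82 and 94 in resting and 38, 30 and 23 in activated libraries (log2 change -1.80, SE 0.31, edgeR adjusted p = 3.64e-04). For all 3 genes, which were the ones called lower, the groups did not overlap once scaled. The share of all genes without overlap was not taken for leader counts. Leader and coding counts come from the same libraries, so they are not independent measurements.

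The leader of Bach2 had a log2 change of -0.56 (95% interval -1.03 to -0.09, edgeR adjusted p = 0.0517), narrowly missing the threshold, while its coding change was 0.15. Its leader levels in CPM were 1083, 1335 and 1080 at rest against 824, 727 and 826 after activation. The groups did not overlap with the 5′ UTR scaling factors, and the separation is given for that scaling only. Per 100 CDS counts the groups overlapped, and the share of all genes without overlap was not taken. Leaving out resting replicate 2 (-0.68, edgeR adjusted p = 0.0494) or activated replicate 2 (-0.57, edgeR adjusted p = 0.0449) brought it past the threshold, as did library totals alone (-0.80, edgeR adjusted p = 0.00899). Under the other 8 alternatives it was not called, and with the scaling factors of the CDS it was -0.27 (edgeR adjusted p = 0.430). The leader of Foxo1 had a log2 change of -0.45 (95% interval -1.05 to 0.15, edgeR adjusted p = 0.215), with 38, 130 and 101 counts in resting and 81, 99 and 93 in activated libraries. Resting replicate 2 stood lowest there, and without it the change was -0.79 (edgeR adjusted p = 0.0279). It was -0.25 without resting replicate 3 (edgeR adjusted p = 0.573) and -0.15 with the scaling factors of the CDS (edgeR adjusted p = 0.747), and not called under 10 of 11 alternatives. The leaders of Foxp1 and Satb1 did not pass the filter, with 15 and 21 counts over the resting and 13 and 20 over the activated libraries. Without the filter their log2 changes were -0.69 (edgeR adjusted p = 0.544) and -0.56 (edgeR adjusted p = 0.573).

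**Figure D3:**
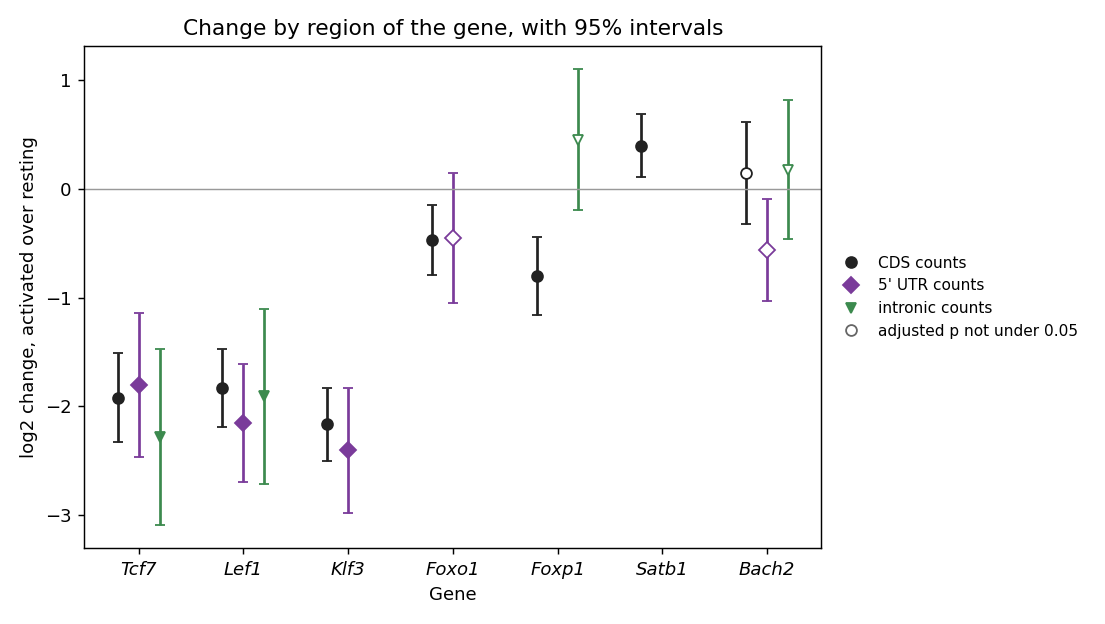
Log2 change, activated over resting, of CDS, 5′ UTR and intronic counts with 95% intervals, each region scaled on its own; filled symbols have an adjusted p under 0.05, and regions that failed the filter on low counts are not drawn. Tcf7 lies between -2.28 and -1.80 and Lef1 between -2.15 and -1.83 in all 3 regions, Klf3 at -2.16 and -2.40 in both regions drawn, whereas for Foxp1 the CDS lies at -0.80 and the introns at 0.46.

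Whether leaders changed beyond the coding sequence of the same gene was tested in 1 model over both kinds of count. Over all 5282 genes tested 9 passed (0.17%; 0.0947% lower and 0.0757% higher; 508 at an unadjusted p under 0.05), and 0 of the 7 genes did. The largest fitted values were -1.04 for Satb1 (95% interval -1.98 to -0.10, edgeR adjusted p = 0.468), on 21 leader counts at rest and 20 after activation, and -0.69 for Bach2 (95% interval -1.33 to -0.06, edgeR adjusted p = 0.468). For Tcf7 it was 0.07 (95% interval -0.55 to 0.70), for Lef1 -0.33 (-0.85 to 0.19), for Klf3 -0.24 (-0.84 to 0.37) and for Foxo1 0.05 (-0.55 to 0.66). Each of these 4 intervals includes 0, and none is narrow enough to show that leader and coding sequence moved alike.

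Records in the 3′ UTR, past the stop codon, were fewer. Over the 3 resting and the 3 activated libraries they came to 119 and 50 for Tcf7, 44 and 8 for Lef1, 34 and 5 for Klf3, 15 and 10 for Foxo1, 25 and 36 for Satb1, and 22 and 31 for Bach2, without scaling. Foxp1 had 0 in all 6 libraries. Per 100 CDS counts the groups overlapped for each gene with such records, and no test was made on them.

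Some records lay strictly in introns. Bach2 had 51.9 ± 5.28 intronic counts per 100 CDS counts at rest and 50.7 ± 19.6 after activation (SD, n = 3). Tcf7 had 19.7 ± 1.33 and 14.1 ± 3.56, and Lef1 14.6 ± 1.21 and 12.2 ± 2.15. Foxo1, Satb1 and Klf3 had nearly none, with 4, 6 and 8 intronic counts over the resting and 2, 12 and 5 over the activated libraries, so these 3 genes were not tested on introns alone. Whether the intronic records are footprints of ribosomes on parts that the annotation leaves out, or other RNA, was not tested.

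Intronic counts of Tcf7 and Lef1 fell along with the coding counts. Tcf7 had 260, 378 and 290 at rest against 37, 110 and 73 after activation, with no overlap once scaled (log2 change -2.28, SE 0.35, edgeR adjusted p = 0.00402). Lef1 had 86, 118 and 108 at rest against 15, 49 and 32 after activation (log2 change -1.91, SE 0.35, edgeR adjusted p = 0.00928). Introns relative to CDS changed by -0.39 for Tcf7 (95% interval -1.41 to 0.64, edgeR adjusted p = 0.854). For Lef1 they changed by -0.15 (95% interval -1.13 to 0.84, edgeR adjusted p = 0.964), so neither passed. The share of all genes without overlap was not taken for introns. Of 393 genes tested on introns 67 were called (17%) and 21 were lower (5.34%); only 3 of the genes tested had a lower change than Tcf7. Bach2 introns had a log2 change of 0.18 (95% interval -0.46 to 0.82, edgeR adjusted p = 0.691).

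The introns of Foxp1 did not pass the test, and their fitted change was above 0. The intronic counts were 17, 27 and 31 at rest against 31, 39 and 44 after activation. Scaled by the intronic TMM factors, all activated libraries were above all resting ones. Those factors ran widely, from 0.478 to 1.74, and the separation is given for that scaling only. The log2 change was 0.46 (95% interval -0.20 to 1.11, edgeR adjusted p = 0.305) while the coding counts of Foxp1 fell. With the scaling factors of the CDS the intronic change was 0.38 (edgeR adjusted p = 0.370). Per 100 CDS counts it had 5.40, 6.09 and 8.71 at rest against 17.9, 11.5 and 16.1 after activation, so the groups did not overlap. Introns relative to CDS gave a fitted log2 change of 1.29 (95% interval 0.21 to 2.36), which did not pass after adjustment over 1749 genes (edgeR adjusted p = 0.373). In that comparison edgeR called 0 genes (0%), with 183 at an unadjusted p under 0.05, and the older quasi-likelihood fit of edgeR called 63, Foxp1 not among them (edgeR adjusted p = 0.131). The span of Foxp1 holds 5 other RefSeq genes, none of them protein-coding, and their part in the intronic counts was not tested.

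**Figure D4:**
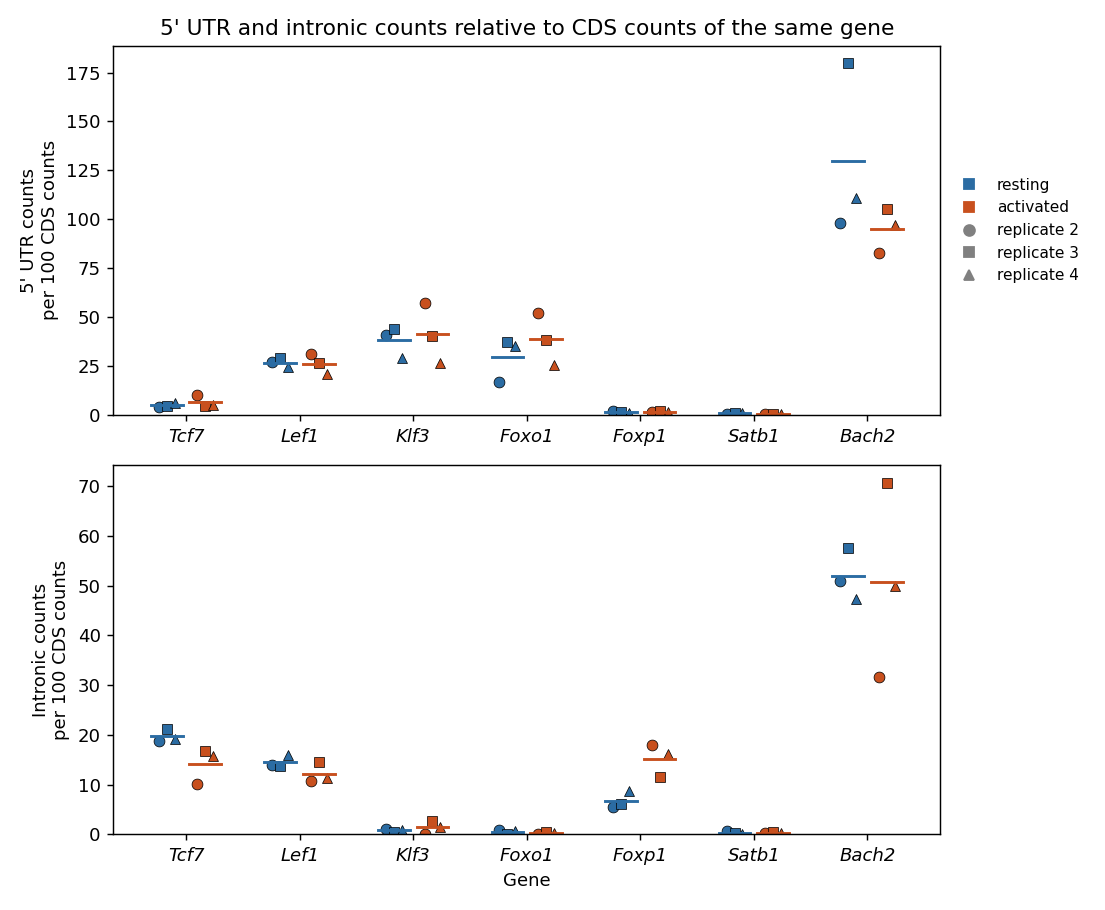
Counts in the 5′ UTR (top) and strictly in introns (bottom) per 100 CDS counts of the same gene, by library, with bars at the mean of 3 libraries. Bach2 lies between 82.9 and 180 in the leader and between 31.6 and 70.7 in introns. Foxp1 is the one gene of the 7 with all activated libraries above the resting ones in introns. Tcf7 is the one with all activated libraries below. Neither change relative to CDS passed the edgeR test (adjusted p = 0.373 for Foxp1 and 0.854 for Tcf7), and the share of all genes without overlap was not taken.

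By its pattern over the 6 libraries, Tcf7 lay closest within the set to Lef1. Likeness was taken as the root mean square difference of log2 CPM centred on each gene's mean, and it was 0.21 between the pair; 22 of 6774 other genes were nearer to Tcf7 than Lef1 was. Klf3 was also nearest to Lef1 (0.21), with rank 14 among all other genes. Foxo1 and Foxp1 (0.30) and Satb1 and Bach2 (0.31) were nearest to each other within the set only: Foxp1 had rank 1422 from Foxo1 and Bach2 rank 1883 from Satb1 among the 6774 other genes. The 2 genes outside the set nearest to Tcf7 were ENSMUSG00000004568.11 and ENSMUSG00000022358.6, whose symbols the tables used here do not give. The former went from 115 ± 25.4 to 28.7 ± 8.45 CPM in the CDS (SD, n = 3, log2 change -2.03, edgeR adjusted p = 1.35e-05) and the latter from 67.2 ± 7.90 to 16.7 ± 7.35 (log2 change -2.10, edgeR adjusted p = 4.85e-05). The measure takes in the size of the change between the groups as well as the spread within them.

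CDS counts summed to between 437200 and 594508 in resting and between 511483 and 1074656 in activated libraries, and the intervals above cover the spread between libraries at that depth. Replicates of a group differed by more than counting noise, with a chi-square over its degrees of freedom of 1.89 to 4.76, so no 2 libraries agreed within sampling noise; preparations from 1 animal or culture could differ as much. The table pairs no gene names with its IDs, so markers of helper T cells and of other cell types, the other genes of the naive programme, relatives of the 7 genes and activation genes were not analysed here. The cell type is therefore as labelled and was not checked against its markers.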

How the data were processed

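The authors deposited raw counts of aligned records in 1 table: 22322 genes by 36 columns, each library having 6. As read per the file headers, the columns are CDS counts in 2 modes, of which the first was used, and counts in the 5′ UTR, the 3′ UTR, exons and introns. The submitters' processing notes list TopHat2 2.0.13, Bowtie 1.1.1.0, HTSeq with no version and mm10; which annotation, trimming and strand option went with them is unstated in the sources used here. The 5 summary rows that name no gene stayed out of library sizes and tests: 65.8% to 79.6% of records were not uniquely aligned, 11.8% to 14.5% lay in no CDS and 0.0398% to 0.0985% were ambiguous.

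The test was that of edgeR 4.0.16 (R 4.3.3; filterByExpr, TMM, newer quasi-likelihood fit, two-sided) over the whole table, with Benjamini-Hochberg adjustment at 0.05. SE is the size of the log2 change over the square root of F. Region comparisons used 1 edgeR model with a term per library, for genes with at least 5 counts in each region. DESeq2 1.42.0, limma 3.58.1 voom and the other alternatives are given in the closing section. Scripts were tested on simulated data. The members, gene lists and tests were chosen with earlier results of these data known; tests of introns and of ratios between genes were added after the data were seen. All members were named, plus the 2 genes nearest to Tcf7. The planned lists (cell type markers, naive programme, relatives, other T cell factors, activation) could not be applied, because 0 IDs were paired with a symbol. Promoter sequences and gene positions come from RefSeq, where all 7 genes matched.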

Additional observations from a re-analysis of the deposited data

How the results depend on the processing

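The falls of Tcf7 (log2 -2.26 to -1.67), Lef1 (-2.17 to -1.70), Klf3 (-2.50 to -2.05) and Foxp1 (-1.14 to -0.62) in the CDS passed the threshold under all 16 alternatives, which covered 3 other scalings, DESeq2, limma voom, no filter, a replicate block, 2 other counting columns, the older quasi-likelihood fit and each library left out. Leaving out each library gave -0.55 to -0.35 for Foxo1, 0.36 to 0.44 for Satb1 and -0.084 to 0.35 for Bach2. Satb1 missed the threshold with upper quartile factors (0.26), library totals alone (0.061) and exon counts (0.32), and the number of members higher was then 0; it was 0 to 1 with a library left out. The CDS change of Bach2 turned to -0.19 with library totals alone and -0.081 in exon counts. With a library left out, 3 to 5 members were lower in the 5′ UTR. The 5′ UTR falls of Tcf7, Lef1 and Klf3 passed under all 11 alternatives run on them, and the intronic falls of Tcf7 and Lef1 under all 9.

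For 5′ UTR relative to CDS, 0 genes passed with 1 scaling for both regions, 1 with a replicate block, 20 with the older fit and 1 to 8 with a library left out, against 9. Klf3 turned to 0.036 with 1 scaling. With a library left out the range was -0.19 to 0.27 for Tcf7, -0.30 to 0.22 for Foxo1 and -0.20 to 0.28 for Foxp1. On introns 28 to 67 genes passed with a library left out. Introns relative to CDS gave 63 genes with the older fit against 0; Bach2 was -0.10 with 1 scaling, and left-out libraries gave -0.26 to 0.45 for Bach2, -0.25 to 1.35 for Satb1 and -0.36 to 0.071 for Lef1. The Lef1 over Tcf7 ratio changed by -0.046 to 0.29. The cause of these changes was not tested.

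Same-numbered libraries deviated together with correlations of 0.13, 0.07 and 0.23 for replicates 2, 3 and 4. Differently numbered ones had -0.16 to 0.0075. Each library correlated best with its own number, a hint of pairing from the data. The labels state no pairing, and the main tests and the permutation tests did not use it. With the replicate block 3455 genes were called in the CDS against 3097, 5 members lower and 1 higher, and no call on a member changed. Depth limits Bach2 most, on 59 to 102 CDS counts a library.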
